A study of Homo sapiens with 2 samples.

Results

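The HOX cluster genes were taken as the protein-coding genes of the GRCh38 RefSeq gene table whose symbol is HOXA, HOXB, HOXC or HOXD followed by a number. This gave 39 genes of 20037 protein-coding genes, with 11 in the HOXA cluster on chromosome 7, 10 in HOXB on chromosome 17, 9 in HOXC on chromosome 12 and 9 in HOXD on chromosome 2. RUNX1 binding at them was read from 1 list of 13591 peaks, obtained by ChIPseq in engineered MCF10A cells. The parental MCF10A is a human cell line of breast epithelial origin that the study describes as non-tumorigenic. By the study, deletion of RUNX1 transformed MCF10A cells, which then formed tumours in mice. The cells of the ChIPseq were a RUNX1-deleted MCF10A line, transduced with lentiviruses carrying an inducible RUNX1 gene. They were given doxycycline at 1 µg/ml for 24 hours. The 2 libraries, 1 from the anti-RUNX1 immunoprecipitate and 1 of input DNA made without antibody, share this genotype and treatment, so RUNX1 at its natural level is not represented. By the study's methods, a first ChIPseq of endogenous RUNX1 showed no strong binding, and the inducible line was used after it. By the study's methods, knockout lines were grown from single-cell colonies. The immunoprecipitate had 80338845 tags after duplicate removal and the input had 87410774. There was 1 library of each kind, hence differences between clusters are described without a test, and the intervals given for single peaks cover counting error only. The list holds no expression values, so the epithelial identity of the cells could not be checked here.

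HOX genes encode homeodomain transcription factors that give cells their position along the body axis. They stand in tight clusters that arose by duplication of an ancestral cluster, are numbered by paralog group, and within a cluster are transcribed in 1 direction in the order in which they act along the axis. Many remain expressed in adult epithelia, and in leukemia the genes of the HOXA cluster are well known downstream of KMT2A fusions. RUNX1, known for its role in blood formation and as a gene mutated in breast cancer, binds DNA together with CBFB at the letters TGTGGT or TGCGGT.

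RUNX1 peaks were found in and around HOXA and HOXB, and 0 were listed in or within 200 kb of HOXC and HOXD. The windows, each a cluster with 200 kb on either side, held 8 peaks in all, of which 5 belonged to HOXA and 3 to HOXB. Inside the clusters themselves, between the outer ends of the first and the last HOX gene, lay 3 peaks in HOXA and 1 in HOXB. With a limit of 5 kb from either end of a gene, summits were assigned to HOXA3, HOXA5 and HOXA6, that is 3 of 39 HOX genes, or 7.69%. Over all protein-coding genes the same rule gave 4962 genes, or 24.8%. HOX genes are short, with a median length of 3.79 kb against 24.1 kb for all protein-coding genes. Among protein-coding genes of at most 10 kb, 11.6% had a peak, and 2 of the 33 HOX genes of that length did, or 6.06%.

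**Figure D1:**
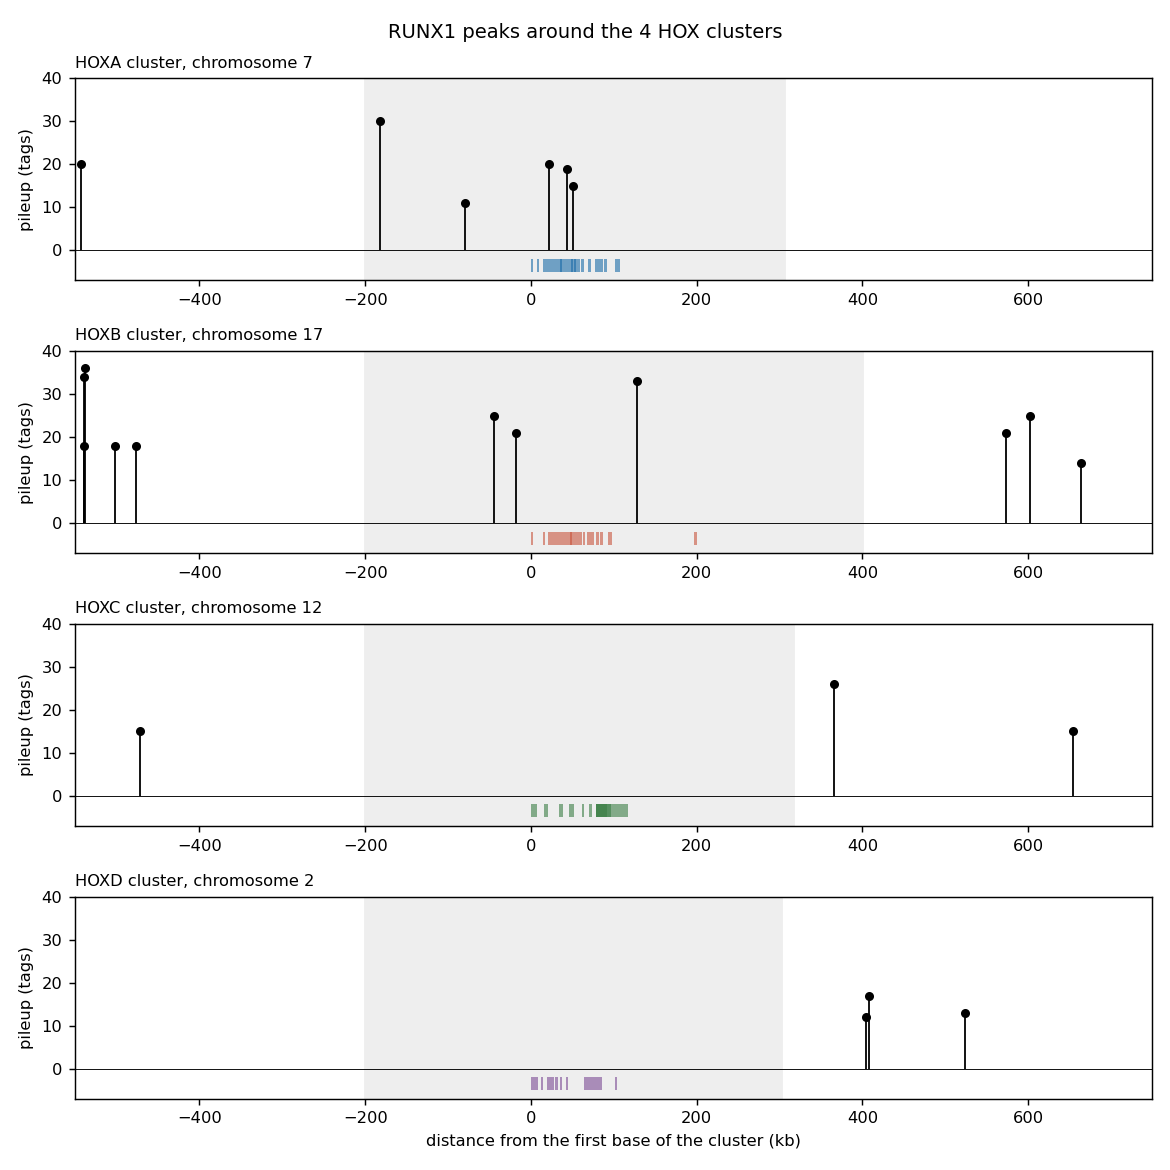
Peaks within 550 kb of the 4 HOX clusters, with distance from the first base of the cluster in kb on the x axis and the pileup at the summit in tags on the y axis. Black stems are peaks, coloured bars under the line are HOX genes and the grey area is the cluster with 200 kb on either side; it holds 5 peaks for HOXA, 3 for HOXB and 0 for HOXC and HOXD.

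Sequences before annotated starts of HOX genes are shown first, from the RefSeq sequence tables (GRCh38.p14). Windows of 250 bases before an annotated start were matched for 20 of the 39 HOX genes, and they gave 26 different windows, since HOXC4 and HOXC5 share a start and HOXA3 and HOXA10 have several. The letters TGTGGT or TGCGGT, on either strand, were present in 4 of these 26 windows, or 15.4%, against 16.3% of 34943 windows of the same length over all genes. They occurred before 2 starts of HOXA3, before HOXC4 and before HOXD10. The start of HOXA3 nearest to a summit, and those of HOXC4 and HOXD10, whose clusters had 0 peaks, are printed here from 5′ to 3′ on the strand of the gene, with the motif or its reverse complement in capitals.

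HOXA3 (chr7:27113843-27114092, minus strand): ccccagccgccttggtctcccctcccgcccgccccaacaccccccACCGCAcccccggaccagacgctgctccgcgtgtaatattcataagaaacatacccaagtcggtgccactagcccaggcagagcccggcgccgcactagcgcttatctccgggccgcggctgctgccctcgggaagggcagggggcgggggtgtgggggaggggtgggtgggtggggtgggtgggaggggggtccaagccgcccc

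HOXC4 (chr12:54016638-54016887, plus strand): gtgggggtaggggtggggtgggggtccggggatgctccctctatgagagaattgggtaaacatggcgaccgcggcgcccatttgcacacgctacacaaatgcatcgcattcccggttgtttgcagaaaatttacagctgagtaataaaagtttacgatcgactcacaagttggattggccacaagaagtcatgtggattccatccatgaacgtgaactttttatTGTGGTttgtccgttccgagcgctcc

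HOXD10 (chr2:176116528-176116777, plus strand): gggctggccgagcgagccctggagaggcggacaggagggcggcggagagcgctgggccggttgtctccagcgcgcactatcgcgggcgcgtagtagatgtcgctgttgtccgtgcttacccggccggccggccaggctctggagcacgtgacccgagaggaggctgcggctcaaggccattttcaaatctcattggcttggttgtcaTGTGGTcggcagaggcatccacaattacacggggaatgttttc

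The letters are therefore found both before a start 1.56 kb from a summit and before starts 287 kb and 375 kb from the nearest one. A match is a description of the sequence and not a binding site. A summit fell within 250 bases before to 50 bases after the start in 0 of these 26 windows and in 432 of 34943 windows of all genes, or 1.24%. With so low a share over all genes, 0 of 26 windows says little. Of HOXB only HOXB1 had a window, and of HOXC only the start shared by HOXC4 and HOXC5. HOXA5, whose higher end lay 19 bp from a summit, is not among the 20 genes, so the 0 does not cover it.

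The HOXA cluster spans 27092993 to 27200091 on chromosome 7, or 107 kb. Its 3 inner peaks lay within 28.3 kb of each other, in the part of the cluster that holds HOXA3, HOXA4 and HOXA5. The first of them ran from 27115326 to 27115561, with a summit at 27115404 inside HOXA3, a gene of paralog group 3 known for pharyngeal and neck development. Its pileup, the number of extended tags over the summit, was 20 (exact 95% Poisson interval 12.2 to 30.9), and its fold enrichment over the local background was 6.47. The −log10 q was 9.27, and 28.5% of all peaks in the list had a higher one. This summit lay 1.56 kb upstream of the nearest annotated start of HOXA3 and 2.95 kb downstream of the next.

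The second inner peak was at 27136090 to 27136232, with a summit at 27136163. It had 19 tags (11.4 to 29.7), a fold enrichment of 5.32 and a −log10 q of 6.89. Its position was within the long transcripts of HOXA3 and between HOXA4 and HOXA5. It was 4889 bp from HOXA5, just inside the 5 kb limit, and 5406 bp from HOXA4, just outside it.

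The third, at 27143523 to 27143680, had its summit at 27143662, inside HOXA5 and also inside the antisense RNA gene HOXA-AS3 and the long form of HOXA3. The summit was 19 bp from the higher end of HOXA5, which is the 5′ end in a cluster whose tabulated starts are all on the minus strand. HOXA5 is a gene of paralog group 5, known for lung and mammary gland development. This was the weakest of the 3, with 15 tags (8.40 to 24.7), a fold enrichment of 4.83 and a −log10 q of 4.85, and 63.5% of all peaks had a higher −log10 q. The same summit was 1734 bp from HOXA6. The intervals of the 3 pileups overlap, so the order of their heights is not resolved at this depth.

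HOXA3 thus had 3 peaks, HOXA5 had 2 and HOXA6 had 1, but these are the same 3 sites counted by overlapping or neighbouring genes. HOXA3 is annotated over 45.6 kb and its interval encloses HOXA4, HOXA5 and HOXA6. With peaks restricted to gene bodies, HOXA3 had 3, HOXA5 had 1 and HOXA6 had 0. The genes of the cluster from HOXA7 to HOXA13 had 0 peaks. With the nearest summit on the HOXA5 side, the distance to it grew along them. It was 10.1 kb for HOXA7, 18.8 kb for HOXA9, 26.9 kb for HOXA10, 37.5 kb for HOXA11 and 50.7 kb for HOXA13. Towards the other end, HOXA2 was 12.7 kb from a summit.

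The other 2 peaks of the HOXA window lay outside the cluster, on its lower-coordinate side. The taller one, at 26910311 to 26910553, was 45.9 kb from SKAP2, which encodes an adaptor protein of Src kinase signalling. It had 30 tags (20.2 to 42.8) and a fold enrichment of 6.63, over an input level 1.67 times the genome background. Its −log10 q was 13.6, exceeded by 13.5% of all peaks. The other, at 27012936 to 27013048, was among the weakest of the list, with 11 tags (5.49 to 19.7), a fold enrichment of 3.75 and a −log10 q of 2.17, which 94.1% of all peaks exceeded. Beyond HOXA13, towards EVX1, the window held 0 peaks, and the next summit on that side was 729 kb away.

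The HOXB cluster covers 48528526 to 48728750 on chromosome 17, or 200 kb, because HOXB13 stands apart from the other HOXB genes. Its 1 inner peak was also the strongest of the 8. It ran from 48655960 to 48656256 with a summit at 48656117, in the stretch between HOXB9 and HOXB13 and inside the long non-coding RNA gene LINC02086. It had 33 tags (22.7 to 46.3), a fold enrichment of 9.05 and a −log10 q of 19.9, and 5.41% of all peaks had a higher −log10 q. The interval of its pileup overlaps those of all other peaks in the 4 windows except that of the 11-tag HOXA peak. Its width of 297 bp was exceeded by 9.08% of the list. The summit lay 29.8 kb from HOXB9 and 68.6 kb from HOXB13, a gene known as a marker of prostate epithelium, so that it was assigned to 0 HOX genes at 5 kb.

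The remaining HOXB peaks lay outside the cluster on the side of HOXB1. The one at 48510957 to 48511089 was 17.5 kb from HOXB1, with 21 tags (13.0 to 32.1) and a fold enrichment of 6.87. The one at 48483536 to 48483717 was 44.9 kb from HOXB1 and 38.6 kb from SKAP1, a paralog of SKAP2 that acts in T cells, with 25 tags (16.2 to 36.9) and a fold enrichment of 6.74. Their −log10 q values were 10.3 and 11.7. From 200 to 500 kb out, HOXB had 4 further peaks of 14 to 25 tags, of which 1 lay inside B4GALNT2, a glycosyltransferase gene, and 1 inside NFE2L1. The stretch between HOXB1 and HOXB9, which holds 9 of the 10 HOXB genes, had 0 peaks. Distances to the nearest summit there ranged from 17.5 kb for HOXB1 to 64.5 kb for HOXB4, and were 31.6 kb for HOXB2, 37.8 kb for HOXB3, 62.3 kb for HOXB5, 51.1 kb for HOXB6, 45.1 kb for HOXB7 and 40.8 kb for HOXB8.

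**Figure D2:**
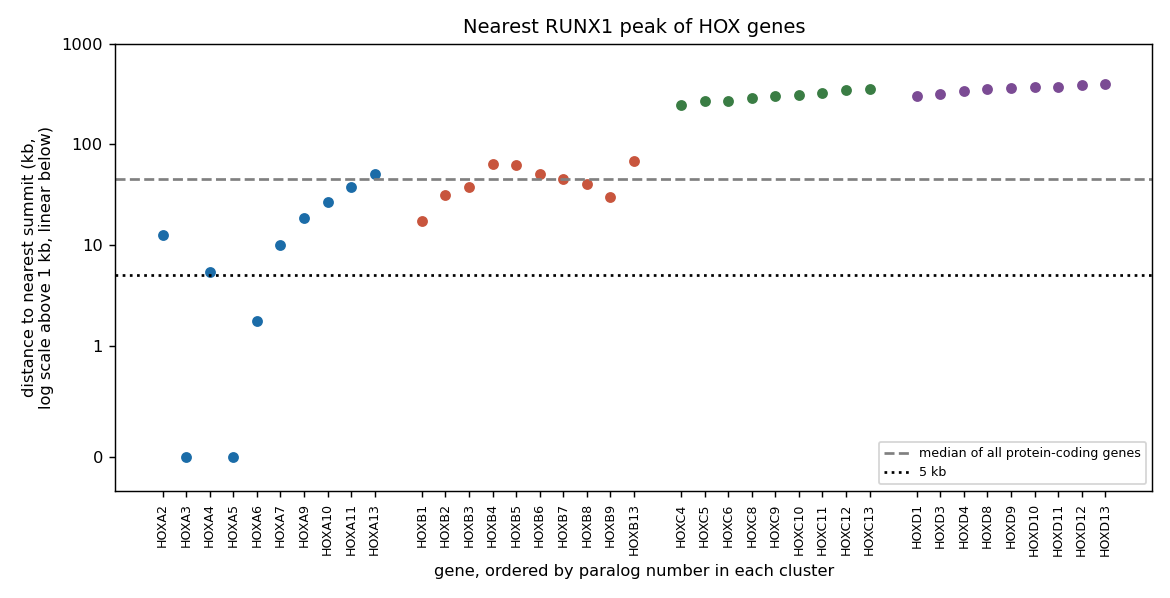
Distance in kb from 38 HOX genes to the nearest RUNX1 summit (y axis, logarithmic above 1 kb and linear below), with the genes of each cluster ordered by paralog number on the x axis. HOXA3 and HOXA5 are at 0, HOXC and HOXD genes are at 248 to 395 kb, the dashed line marks the median of all protein-coding genes, 45.5 kb, and the dotted line marks 5 kb.

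HOXC genes lay 248 to 358 kb and HOXD genes 301 to 395 kb from the nearest summit, without overlap with the HOXA genes (0 to 50.7 kb) or the HOXB genes (17.5 to 68.6 kb). In HOXC the distance was 248 kb for HOXC4, 269 kb for HOXC5, 274 kb for HOXC6, 292 kb for HOXC8, 301 kb for HOXC9, 314 kb for HOXC10, 327 kb for HOXC11, 345 kb for HOXC12 and 358 kb for HOXC13. In HOXD it was 301 kb for HOXD1, 318 kb for HOXD3, 338 kb for HOXD4, 359 kb for HOXD8, 366 kb for HOXD9, 371 kb for HOXD10, 376 kb for HOXD11, 389 kb for HOXD12 and 395 kb for HOXD13. In both clusters the nearest summit was on the side of the anterior genes, those with low numbers. Of the 39 HOX genes, 23 were farther from a summit than the median protein-coding gene. The 18 genes of HOXC and HOXD, 46.2% of the HOX genes, had 0 peaks within 200 kb, and so did 16.9% of all protein-coding genes. Since the genes of a cluster share 1 neighbourhood, these 18 genes amount to 2 regions.

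The peak-free stretch around HOXC was 0.837 Mb long. It ended 472 kb before HOXC13 at a peak inside PCBP2, which encodes an RNA-binding protein, with 15 tags (8.40 to 24.7), and 248 kb after HOXC4 at a peak at 54304228 to 54304520, 3.36 kb from NFE2. The latter had 26 tags (17.0 to 38.1), a fold enrichment of 8.43 and a −log10 q of 15.2. NFE2 encodes a transcription factor of the erythroid and megakaryocytic lineages. Around HOXD the stretch was 1.06 Mb long. It ended 301 kb beyond HOXD1 at a peak of 12 tags (6.20 to 21.0), followed 3.73 kb later by one of 17 tags (9.90 to 27.2). Both lay in the gene-poor region beyond MTX2, 153 kb and 157 kb from that gene. Of all protein-coding genes, 17.2% lay between summits at least as far apart as those around HOXC, and 13.1% between summits at least as far apart as those around HOXD. The median distance between neighbouring summits in the list was 77.6 kb.

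By density, the HOXA window held 9.86 peaks per Mb against 3.87 over chromosome 7, and HOXB held 5.00 against 7.15 over chromosome 17. The order of these 2 clusters by count depends on the settings. With 500 kb flanks HOXA had 5 peaks and HOXB had 7. With 200 kb flanks and a fold enrichment of at least 5, each had 3. HOXC and HOXD held 0, against 4.44 and 4.66 over chromosomes 12 and 2. Over the 4 windows together the density was 3.76 peaks per Mb, beside 4.40 over all chromosomes. Around single protein-coding genes, taken with 200 kb on either side, the median count was 3 peaks, with quartiles of 1 and 5.

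The 8 peaks lay within the range of the list. Their median pileup was 20.5 tags and their median fold enrichment 6.55, compared with 18 and 5.06 over the whole list. A fold enrichment of at least 5 was reached by 6 of the 8. The background level that MACS used, worked back from the pileup and enrichment of each peak, was 1.00 to 1.67 times the genome background, with a median of 1.15 compared with 1.11 in the list. The smallest pileup in the list was 10 tags, so weaker sites in HOXC or HOXD would not appear in it.

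**Figure D3:**
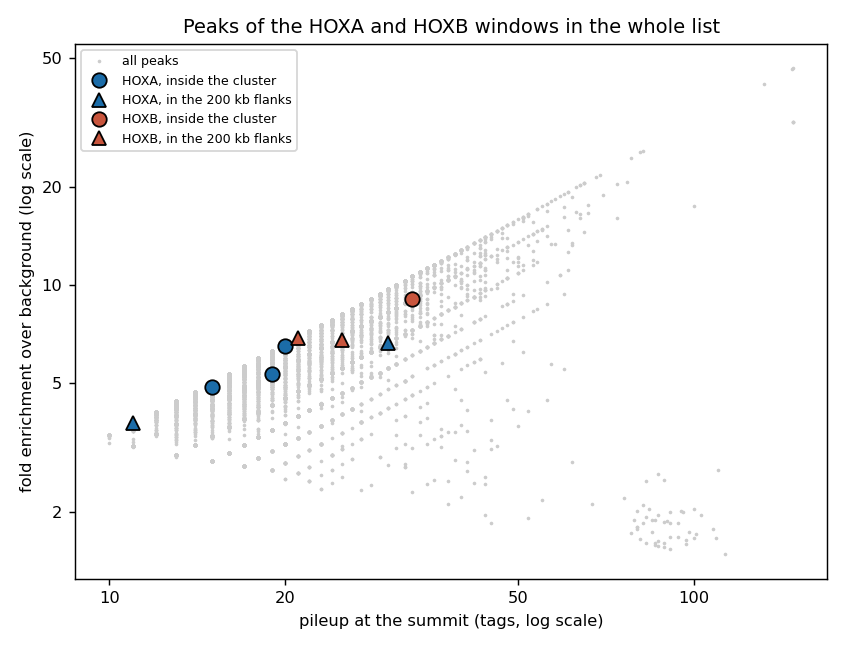
Pileup at the summit in tags (x axis, log scale) and fold enrichment over background (y axis, log scale) of all 13591 peaks in grey, with the 5 HOXA peaks in blue and the 3 HOXB peaks in red. Circles lie inside a cluster and triangles in its 200 kb flanks; the 8 peaks run from 11 to 33 tags, within the main body of the list.

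By cluster, 3 of 11 HOXA genes had a peak, or 27.3%, and 0 of the genes of HOXB, HOXC and HOXD. The share was 24.8% over all protein-coding genes and 11.6% over those of at most 10 kb. The 3 HOXA genes rest on the same 3 sites. Read by paralog group, 3 of the 13 groups had a member with a peak, in each the HOXA member, because only HOXA genes had one. HOXB3 and HOXD3 were 37.8 and 318 kb from a summit, HOXB5 and HOXC5 62.3 and 269 kb, and HOXB6 and HOXC6 51.1 and 274 kb. All members of group 13, the most posterior, were at least 50.7 kb away.

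The clusters also hold non-coding genes. Of 24 long non-coding RNA genes in the 4 clusters, 2 had a peak within 5 kb, HOXA-AS3 with 2 and LINC02086 with 1. Of the 18303 long non-coding RNA genes in the gene table, 14.8% had one. HOTAIRM1 was 15.1 kb from a summit, and HOTAIR, the HOXC transcript known for its link to polycomb repression, was 329 kb away. A peak within 5 kb was found for 0 of the 8 miRNA genes in the clusters and for 6.9% of the 1913 miRNA genes in the table. The nearest were MIR196A1, 23.6 kb from the strong HOXB peak, and MIR196B, 25.8 kb from the HOXA5 peak, while MIR196A2 in HOXC was 313 kb and MIR10A in HOXB 68.8 kb from a summit. The miR-196 miRNAs are encoded in 3 clusters, have HOX messages among their known targets and share a seed, bases 2 to 8, shown in capitals beside that of miR-10a.

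hsa-miR-196a-5p (MIR196A1 and MIR196A2): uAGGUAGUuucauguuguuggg

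hsa-miR-196b-5p (MIR196B): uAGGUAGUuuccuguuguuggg

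hsa-miR-10a-5p (MIR10A): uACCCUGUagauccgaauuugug

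The genes with the miR-196 seed thus lay in windows with and without peaks, at distances that followed their clusters.

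Genes that act with or upon HOX genes were examined with the same 5 kb rule. Among the HOX cofactors, TALE homeodomain proteins that bind DNA next to HOX proteins, MEIS2 had 1 peak inside the gene, which is 212 kb long. The MEIS2 peak had 15 tags (8.40 to 24.7) and a fold enrichment of 4.997. By this rule 24.8% of all protein-coding genes had a peak. Of the 8 even-skipped and ParaHox genes, relatives of the HOX genes with a median length of 6.40 kb, 1 had a peak, or 12.5%, close to the 11.6% of all protein-coding genes of at most 10 kb, a length that 7 of the 8 have. This was GSX2, a factor of forebrain development, with 21 tags (13.0 to 32.1) at 0.451 kb from the gene. EVX1 and EVX2, which flank HOXA and HOXD, were 99.1 and 407 kb from a summit.

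Of 20 chromatin regulators of HOX genes, 6 had a peak, or 30%, beside the 24.8% of all protein-coding genes. The strongest was that of KMT2A, the histone methyltransferase that maintains HOX gene activity. It ran from 118436171 to 118436431 on chromosome 11 with 26 tags (17.0 to 38.1), a fold enrichment of 8.43 and a −log10 q of 15.2, which 10.3% of all peaks exceeded. Its summit lay 124 bp before the annotated start, in the window printed here because it was the 1 window that held a summit among those matched, for 20 of the 39 HOX genes and 30 of the 37 listed genes. Capitals mark the summit and 10 bases on either side.

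KMT2A (chr11:118436242-118436491, plus strand): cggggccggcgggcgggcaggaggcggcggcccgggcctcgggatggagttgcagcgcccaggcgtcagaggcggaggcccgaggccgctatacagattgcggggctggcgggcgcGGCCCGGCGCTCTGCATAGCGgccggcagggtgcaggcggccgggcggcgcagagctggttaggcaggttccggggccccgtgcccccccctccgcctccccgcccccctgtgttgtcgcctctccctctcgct

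The letters TGTGGT and TGCGGT were present 0 times in this window on either strand, which says nothing of the factor beyond these letters. The peak begins before the window does, and that part of the peak was not searched. The polycomb genes had fewer tags, with intervals that overlap that of KMT2A. RING1 had 18 tags (10.7 to 28.4) at 2.77 kb, RNF2 had 21 tags (13.0 to 32.1) inside the gene, PCGF2 had 13 tags (6.92 to 22.2) at 2.07 kb and CBX8 had 21 tags (13.0 to 32.1) at 4.34 kb, the last over an input level 2.09 times the genome background. KDM6A, a demethylase that opposes polycomb, had 14 tags (7.65 to 23.5) inside the gene, which is 240 kb long. The fold enrichment of this peak was 3.21, over an input level 1.67 times the genome background. Its −log10 q was 1.93, which 97.1% of all peaks exceeded, and it would not pass the stricter q limit of 0.01. The peaks of PCGF2 and CBX8, with fold enrichments of 3.73 and 3.93, were, like that of KDM6A, below the fold limit of 5. Those of KMT2A, RNF2 and RING1, at 8.43, 5.32 and 5.93, reached it. The 30% thus holds for the full peak list, and neither it nor the 24.8% was recounted under these limits. Regulators with 0 peaks included EZH1, EZH2, EED, SUZ12, BMI1, CBX2, CBX7, ASXL1, KMT2B, MEN1, WDR5, KDM6B and CTCF.

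**Figure D4:**
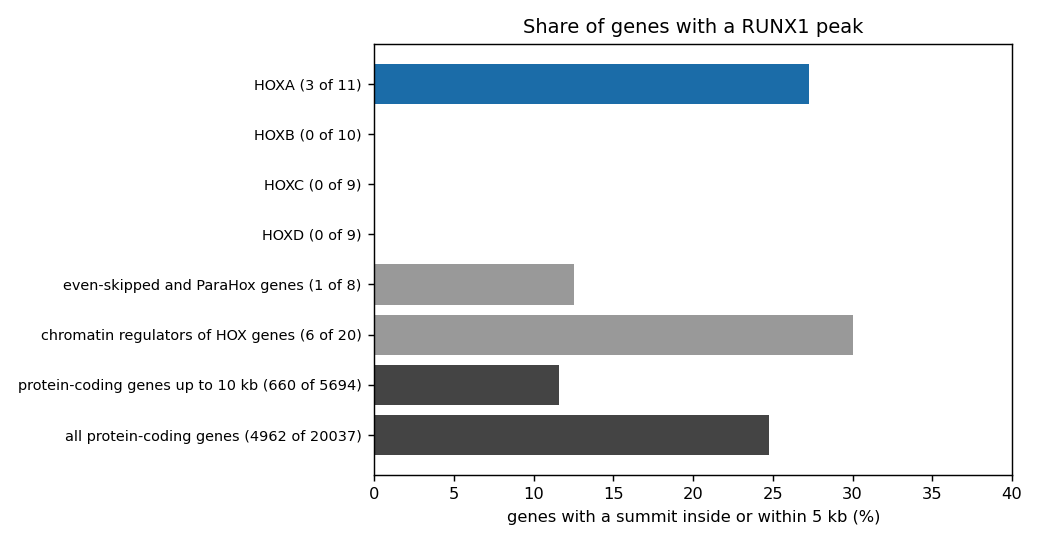
Percent of genes with a RUNX1 summit inside or within 5 kb (x axis, from 0), for the HOX genes of each cluster, 2 lists of related genes and the protein-coding genes of the RefSeq table, with counts beside each name. HOXA reaches 27.3%, the other HOX clusters 0%, all protein-coding genes 24.8%, and protein-coding genes of at most 10 kb, the length of most HOX genes, 11.6%.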

How the data were processed

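RUNX1 ChIPseq was analysed from 1 immunoprecipitate and 1 input library of engineered MCF10A cells, assigned by their labels. Reads had been aligned to hg38 with Bowtie2 (submitters' processing notes; version not given in the sources used here). The authors deposited 1 peak list made with MACS 2.1.2 at a q-value limit of 0.05, with 1 tag kept per position and tags extended to 74 bp. The deposited pileup is a signal that counts extended immunoprecipitate tags over the summit. Fold enrichment, as deposited, divides the pileup by the local background, with 1 added to each. The deposited p and q are −log10 values from a Poisson model, as MACS gives them.

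The background level was recovered from pileup and fold enrichment and divided by the genome background, 2.20 tags (80338845 kept tags of 74 bp over 2.7 Gb). Summits were placed against gene intervals of the RefSeq table (GRCh38.p14), whose starts and strands came from its table of start windows and whose exons were not analysed here. Chromosome lengths were taken to the end of the last annotated gene. Intervals are exact 95% Poisson intervals. Python 3.11.15, pandas 2.3.3 and scipy 1.17.1 were used, and interval counting was tested on simulated data. Named are the HOX genes, other genes inside the clusters, the gene nearest to each peak and members of 3 lists (HOX cofactors, even-skipped and ParaHox genes, and chromatin regulators of HOX genes), except that some genes, and results that need them, are not reported here. NFE2 and other genes at peaks beyond the windows were named after their values were seen. The members and lists were chosen with earlier results of these data known. Alternatives were a fold enrichment of at least 5, a stricter q limit (0.01), merging within 1 kb, overlap of any base, gene bodies alone, 50 kb around genes, and flanks of 0, 100 and 500 kb.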

Additional observations from a re-analysis of the deposited data

How the results depend on the processing

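Of 41 alternatives over 6 counts, 32 stayed within 1.5 times of the reported value. This tally includes the counts of 0 for HOXC and HOXD, which a stricter or narrower rule cannot raise. A q limit of 0.01, merging of peaks within 1 kb and overlap of any base changed 0 of these 6 counts, which cover HOX genes and windows only. Requiring a fold enrichment of at least 5 left 3 HOXA peaks, 3 HOXB peaks and 2 HOX genes with a peak. HOXA and HOXB then held the same number. Such a filter cannot raise a count. HOX genes with a peak were 2 with gene bodies alone and 16 with 50 kb on either side. Within the cluster spans alone the counts were 4 peaks in all, 3 in HOXA and 1 in HOXB. With 500 kb flanks they were 17 in all, 7 for HOXB, 2 for HOXC and 3 for HOXD, while HOXA stayed at 5, so that HOXA no longer had the most. Totals rise with the length counted. All 4 clusters were given the same flanks, and the order of HOXA and HOXB by count depends on the flank and the fold limit chosen. No paired analysis was possible because each group holds 1 library. Single peaks of 11 to 33 tags have wide counting intervals, and no second library was analysed here.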

Other observations

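Peaks beyond the windows of HOXC and HOXB, at NFE2 and NFE2L1, drew attention to the NFE2 family of bZIP transcription factors, whose 4 genes stand beside the 4 HOX clusters. These genes were looked up after the peaks had been seen. NFE2, 0.236 Mb from HOXC, had 1 peak within 5 kb, of 26 tags. NFE2L1, 0.467 Mb from HOXB, had 1 inside the gene, of 18 tags and a fold enrichment of 5.93. NFE2L2, which encodes a regulator of the oxidative stress response, is 1.04 Mb from HOXD and had 1 of 16 tags and a fold enrichment of 4.52 at 1.34 kb. NFE2L3, 0.906 Mb from HOXA, had 0, and its nearest summit was 204 kb away. By the same 5 kb rule, 24.8% of all protein-coding genes had a peak, and a choice made after the peaks were seen gives no support to a pattern.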
